A study of Homo sapiens with 16 samples.

Results

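The circadian clock genes described here are DBP, TEF, HLF, NR1D1, NR1D2, PER1, PER2, PER3, CRY1 and CRY2, taken by gene symbol. All 10 were among the 42351 genes of the deposited count table, and all 10 passed the filter on low counts that left 15067 genes for testing. Polyadenylated RNA was sequenced from a pair of lung cancer cell lines, each deprived of serum for 12 h according to the labels (the methods text gives a longer time for HGF treatments in general) and then given hepatocyte growth factor (HGF), the ligand of the receptor tyrosine kinase MET. Each line contributed 8 libraries, 2 biological replicates at each of 0 h (no HGF), 3, 6 and 12 h of HGF. Cells expressing wt MET are labelled A549, a lung adenocarcinoma line, whereas the text names EKVX as its usual wt MET line and does not name the line sequenced. Cells expressing MET∆14, the receptor that lacks the juxtamembrane part encoded by exon 14, are NCI-H596, a lung adenosquamous carcinoma line that expresses only the mutated allele. Each MET status is represented by 1 cell line, so the line and the MET status cannot be told apart. The libraries include no culture kept without HGF for 3, 6 or 12 h. The action of HGF therefore cannot be told apart from the passage of time after its addition, which for clock genes includes their own oscillation. In bulk RNA, fewer cells expressing a gene and less RNA per cell cannot be told apart.

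The mammalian circadian clock is a transcriptional loop. The activators CLOCK (or its paralogue NPAS2) and ARNTL, also called BMAL1, bind E-box sequences and switch on the PER and CRY genes, whose proteins accumulate and repress that same activator pair. The nuclear receptors NR1D1 and NR1D2, known as REV-ERB alpha and beta, repress ARNTL through ROR response elements, at which the ROR receptors activate. DBP, TEF and HLF are basic leucine zipper activators of the PAR family that act on D-box sequences, where NFIL3 is the opposing repressor. Many cultured cells keep this loop, and serum or growth factors are known to shift it, often through a rapid induction of PER1 and PER2.

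The promoter sequences are shown because clock factors are known to act through a small set of these elements, each of which was found in at most 4 of the 10 members. RefSeq promoters of GRCh38.p14, each 250 bases before to 50 bases after a transcription start, were found for all 10 genes, in 15 windows. Of the 250 upstream bases, 216 of the PER2 window and 31 of the PER1 window lie in annotated exons of the same gene. The same holds for 126 bases in 1 window of CRY2, 122 in 1 of TEF and 86 in 1 of PER3. Both strands were searched for the E-box CACGTG, the related element CACGTT, the D-boxes TTATGTAA and TTACGTAA, the ROR element cores TAGGTCA and TGGGTCA, and the cyclic AMP element TGACGTCA. The first 3 sequences are the 250 bases upstream of a start of NR1D2, PER3 and DBP, and the others are 30-base stretches around an E-box or its variant. Capitals mark a matched motif on either strand, and each sequence runs 5′ to 3′ along the strand of its gene.
NR1D2 chr3:23945871-23946120, plus strand: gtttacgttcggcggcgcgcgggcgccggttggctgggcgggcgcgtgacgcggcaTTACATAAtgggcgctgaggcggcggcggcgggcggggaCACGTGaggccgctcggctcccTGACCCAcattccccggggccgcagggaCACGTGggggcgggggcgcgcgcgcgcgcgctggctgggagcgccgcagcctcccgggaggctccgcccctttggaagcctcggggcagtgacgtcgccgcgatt
PER3 chr1:7784041-7784290, plus strand: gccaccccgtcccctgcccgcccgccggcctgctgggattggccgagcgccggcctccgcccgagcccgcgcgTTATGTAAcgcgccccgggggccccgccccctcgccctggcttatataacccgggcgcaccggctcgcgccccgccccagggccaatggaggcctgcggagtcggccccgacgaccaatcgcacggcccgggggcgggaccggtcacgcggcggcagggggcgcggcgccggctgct
DBP chr19:48637380-48637629, minus strand: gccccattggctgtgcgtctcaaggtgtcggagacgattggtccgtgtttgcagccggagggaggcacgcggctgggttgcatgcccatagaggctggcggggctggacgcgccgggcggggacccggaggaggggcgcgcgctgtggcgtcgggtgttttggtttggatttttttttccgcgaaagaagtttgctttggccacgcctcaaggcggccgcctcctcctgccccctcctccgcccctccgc
PER1 chr17:8152560-8152589, minus strand: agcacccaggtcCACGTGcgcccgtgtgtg
TEF chr22:41367248-41367277, plus strand: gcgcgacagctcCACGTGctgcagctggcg
TEF chr22:41381737-41381766, plus strand: cacctggccccgCACGTGtctatcttatcc
NR1D1 chr17:40100740-40100769, minus strand: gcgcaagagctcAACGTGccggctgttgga
PER2 chr2:238288790-238288819, minus strand: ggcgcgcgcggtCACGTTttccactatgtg
CRY1 chr12:107093621-107093650, minus strand: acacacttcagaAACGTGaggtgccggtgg
CRY2 chr11:45847275-45847304, plus strand: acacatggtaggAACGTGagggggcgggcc

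An E-box was present in windows of 3 members (NR1D2, PER1 and TEF), in 4 of the 15 windows, and 7.26% of all 35114 promoters of that length held it. The NR1D2 window above carried a pair of E-boxes, a D-box and a ROR element core within its 250 upstream bases. The variant CACGTT lay in 4 of the 15 windows (CRY1, CRY2, NR1D1 and PER2), against 5.34% of all promoters. The D-box TTATGTAA was found in 2 windows (NR1D2 and PER3), against 0.886% of all promoters, and TTACGTAA, held by 0.125% of all promoters, lay across the start of PER2. The ROR core TAGGTCA was present in CRY2 (1.85% of all promoters) and TGGGTCA in NR1D2 (3.92%). The cyclic AMP element lay across a start of HLF and in 1.85% of all promoters. The DBP window held none of these letters. The matches are descriptions of these windows only.

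Total counts ranged from 10158590 to 23909304 per library, so that 1 CPM (counts scaled to the TMM library size) stood for 10.8 to 23.3 counts. MET itself was measured at 1210 to 1540 CPM with wt MET and at 370 to 443 CPM with MET∆14. CDKN2A, which is deleted in A549, had 0 counts in the 8 wt MET libraries, and together with its neighbour MTAP it summed to 197 to 283 CPM in the MET∆14 libraries. The 4 epithelial markers summed to 1730 to 2510 CPM with wt MET and 1920 to 3100 CPM with MET∆14, but differed by gene. At 0 h, EPCAM (2.43 against 36.2 CPM) and KRT19 (47.4 against 1720 CPM) were 14.8-fold and 36.3-fold higher with MET∆14. KRT18 and KRT8 were 4.01-fold and 1.42-fold lower there, and made up most of the wt MET sum. The 4 squamous markers summed to at most 3.1 CPM with wt MET and to 2320 to 3280 CPM with MET∆14. Of the 3 markers of lung epithelium, SFTPB was at 3 counts or fewer in every library of both lines and NKX2-1 in every MET∆14 library, so the lung origin of the lines was not visible in these markers. The leucocyte genes PTPRC and CD3E and the fibroblast genes COL1A2 and DCN were also at 3 counts or fewer in every library of both lines. Other genes of those lists were not: COL1A1 had condition means of 11.6 to 32.0 CPM and CD68 of 38.1 to 147 CPM, so that the 4 fibroblast markers summed to 11.1 to 19.2 CPM with wt MET and 16 to 33.5 CPM with MET∆14, and the 3 blood markers to 34.3 to 41.8 and 108 to 154 CPM. The wt MET replicates at 0 h and the MET∆14 replicates at 12 h stood further apart than the other pairs (chi-square per degree of freedom of 9.95 and 34.5, against 2.79 to 4.54). The MET∆14 12 h replicate 2 correlated more with MET∆14 6 h replicate 2 (r = 0.987) than with its own replicate (r = 0.982).

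Before HGF, the clock genes stood at different levels in the lines. With wt MET, the level per kilobase of the longest transcript was highest for NR1D1 at 145 ± 34.2 CPM per kb (SD, n = 2), followed by NR1D2 at 67.4 ± 3.97 and PER1 at 58.7 ± 12.4. PER2 at 21.2 ± 1.19, CRY1 at 17.8 ± 2.44, CRY2 at 7.37 ± 0.95, TEF at 6.75 ± 1.15 and PER3 at 3.01 ± 0.0729 CPM per kb came next. HLF at 1.12 ± 0.194 and DBP at 0.515 ± 0.0882 CPM per kb were lowest. The ranges of mean ± SD overlapped between the neighbours NR1D2 and PER1, PER2 and CRY1, and CRY2 and TEF, and between no others in this order. Levels per kilobase depend on the transcript taken, which for DBP had 5756 bases, and shorter transcripts were not tried. Without division by length, HLF (6.43 CPM) and DBP (2.96 CPM) were still lowest.

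With MET∆14, NR1D1 again stood highest at 22.6 ± 0.0905 CPM per kb (SD, n = 2), but PER3 at 15.5 ± 0.893 was next, ahead of NR1D2 at 14.1 ± 0.934. TEF at 11.3 ± 0.193, PER1 at 10.7 ± 0.354 and DBP at 6.98 ± 0.0178 CPM per kb followed. CRY2 at 4.54 ± 0.00428, PER2 at 3.34 ± 0.104, CRY1 at 1.85 ± 0.146 and HLF at 1.07 ± 0.15 CPM per kb closed the order. Only PER3 and NR1D2 overlapped as neighbours here. This order changed without division by length, where PER3 at 98.4 CPM stood highest, ahead of NR1D2 at 73.8 and NR1D1 at 59.5 CPM.

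At 0 h, 3 members were higher and 6 lower with MET∆14 (edgeR quasi-likelihood test, Benjamini-Hochberg adjustment), while 40.6% of all tested genes were called higher and 39.6% lower in the same comparison, so a call between the lines was the common outcome. DBP was 13.5-fold higher with MET∆14 (log2 difference 3.76 ± 0.15 SE, adjusted p = 3.74e-12), PER3 5.14-fold higher (2.36 ± 0.12, adjusted p = 4.58e-11) and TEF 1.68-fold higher (0.75 ± 0.12, adjusted p = 5.2e-05). CRY1 was 9.64-fold lower with MET∆14 (-3.27 ± 0.13, adjusted p = 2.85e-12). NR1D1, PER2, PER1, NR1D2 and CRY2 were lower by 6.42-fold, 6.34-fold, 5.49-fold, 4.78-fold and 1.62-fold, respectively. HLF, at 5.64 and 7.21 CPM with wt MET and 5.54 and 6.75 CPM with MET∆14, did not pass the test (log2 difference -0.06 ± 0.22, adjusted p = 0.815). The median log2 difference of the 10 members was -1.48, and that of all tested genes 0.02.

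**Figure D1:**
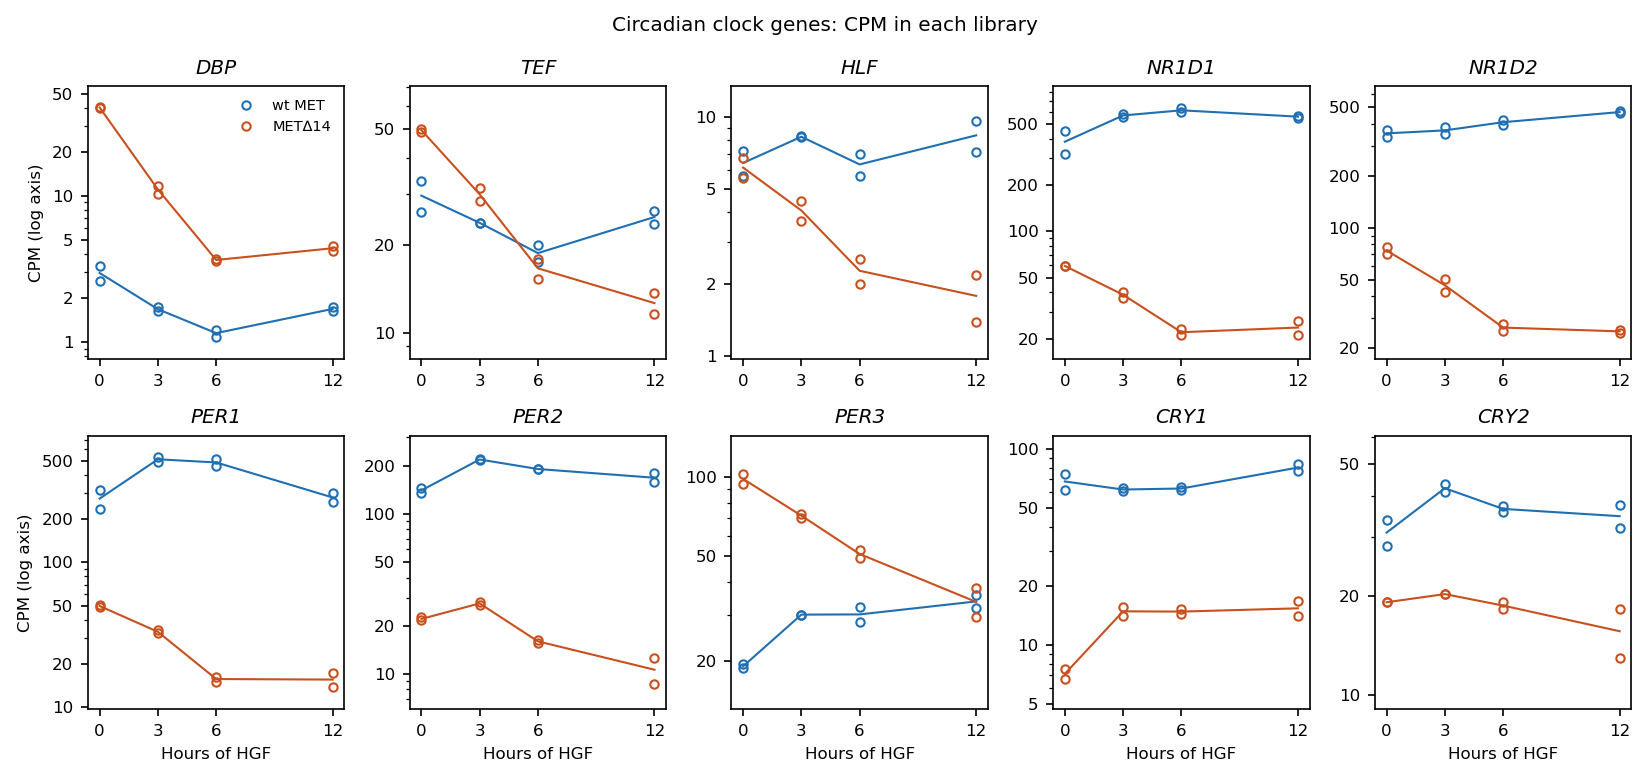
CPM of each clock gene (log axis, with its own range in each panel) against hours of HGF, with a circle for every library and a line through the condition means, wt MET in blue and MET∆14 in orange. DBP, NR1D1, NR1D2, PER1 and PER3 fell after HGF with MET∆14, and all of these but DBP rose with wt MET.

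After HGF, most members fell with MET∆14 at each time, whereas with wt MET more members rose than fell and 4 to 6 of the 10 were not called at a given time. With MET∆14, 6 members were lower and 1 higher at 3 h, and 8 were lower and 1 higher at 6 h and at 12 h. The shares of all tested genes called lower were 16.1% at 3 h, 22.5% at 6 h and 20.1% at 12 h, and the shares called higher were 15.5%, 21.6% and 18.3%. The median log2 fold change of the 10 members was -0.59 at 3 h, -1.44 at 6 h and -1.55 at 12 h, beside medians of -0.05, -0.04 and -0.02 over all tested genes. With wt MET, 5 members were higher and 1 lower at 3 h, 4 higher and 2 lower at 6 h, and 3 higher and 1 lower at 12 h. Here the shares of all tested genes called higher were 10.3%, 16.4% and 16.9% at 3, 6 and 12 h, and those called lower 7.16%, 17.8% and 18.2%. The medians of the members were 0.40, 0.23 and 0.25, against -0.04, -0.05 and 0.00 over all tested genes.

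In the joint F test over the 3 times, 8 members were lower and 1 higher with MET∆14 by the sign of the mean over the times, beside 28.5% and 25.6% of all tested genes. With wt MET, 5 members (NR1D1, NR1D2, PER1, PER2 and PER3) were higher and 3 lower, beside 19.2% and 21.1% of all tested genes. The joint call of TEF was lost without wt MET 6 h replicate 2 (adjusted p = 0.0874) and that of NR1D2 without wt MET 12 h replicate 1 (adjusted p = 0.0701). CRY1 was among those 3 lower ones with a mean log2 change of -0.01, a sign that turned with the normalization, the filter and the library left out. Its joint call held in 4 of the 16 fits that left out a library, with adjusted p-values up to 0.313. The same 5 genes that rose with wt MET fell with MET∆14, and 4.03% of all tested genes were called in both lines with those signs.

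Of the members, DBP, a PAR-family activator, had the deepest fall with MET∆14 at each time. DBP, a well known output and D-box activator of the clock (chr19:48630030-48637379, minus strand), was measured with MET∆14 at 40.1 and 40.2 CPM before HGF. Its level was 11.7 and 10.4 CPM at 3 h, 3.59 and 3.68 CPM at 6 h, and 4.22 and 4.54 CPM at 12 h. No library after HGF reached the 0 h libraries, and the 3 h libraries lay above those of 6 and 12 h. The fall was 3.65-fold at 3 h (log2 -1.87 ± 0.12 SE, adjusted p = 5.61e-08), 11-fold at 6 h (-3.46 ± 0.14, adjusted p = 1.24e-09) and 9.21-fold at 12 h (-3.20 ± 0.14, adjusted p = 2.66e-09). With wt MET the gene was near the lower limit of the data, at 18 to 47 counts per library. It had 2.6 and 3.32 CPM at 0 h, 1.74 and 1.62 CPM at 3 h, 1.09 and 1.21 CPM at 6 h, and 1.62 and 1.75 CPM at 12 h. These libraries also lay below those of 0 h at every time, with a fall of 1.76-fold at 3 h (adjusted p = 0.0147), 2.57-fold at 6 h (adjusted p = 0.000206) and 1.77-fold at 12 h (adjusted p = 0.00461). The call at 3 h was lost without wt MET 0 h replicate 2 or either 3 h replicate and with DESeq2 (adjusted p = 0.0523), and that at 12 h without wt MET 0 h replicate 2 (adjusted p = 0.107) or 12 h replicate 1 (adjusted p = 0.0596).

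TEF, the thyrotroph embryonic factor (chr22:41367333-41399326, plus strand), had 50.3 and 49.1 CPM at 0 h with MET∆14. It was at 31.4 and 28.4 CPM at 3 h, 15.3 and 18.0 CPM at 6 h, and 11.6 and 13.7 CPM at 12 h, each time below the libraries of the time before. It fell 1.66-fold at 3 h (adjusted p = 0.000355), 2.96-fold at 6 h (log2 -1.57 ± 0.13, adjusted p = 2.17e-07) and 3.96-fold at 12 h (-1.99 ± 0.14, adjusted p = 1.17e-07). With wt MET, TEF had 26.1 and 33.2 CPM at 0 h, 23.8 and 23.9 CPM at 3 h, 20.1 and 17.5 CPM at 6 h, and 26.2 and 23.8 CPM at 12 h. Only the 6 h libraries were called, 1.57-fold lower (adjusted p = 0.00149), and the 12 h libraries overlapped those of 0 h.

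HLF, the hepatic leukaemia factor (chr17:55264960-55325187, plus strand), was the least abundant member per kilobase in cells expressing MET∆14, with 15 to 136 counts per library. It had 5.54 and 6.75 CPM at 0 h, 3.66 and 4.47 CPM at 3 h, 2.54 and 2.01 CPM at 6 h, and 2.19 and 1.39 CPM at 12 h. The libraries after HGF all lay below those of 0 h, and the fall passed the test at 6 h (2.76-fold, adjusted p = 0.000188) and at 12 h (3.31-fold, adjusted p = 0.000113) but not at 3 h (log2 -0.59 ± 0.23, adjusted p = 0.0628). With wt MET it ranged from 5.64 to 9.62 CPM over the 8 libraries and was not called at any time (log2 0.36 ± 0.22 at 3 h, -0.02 ± 0.22 at 6 h and 0.37 ± 0.21 at 12 h).

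The nuclear receptor repressors rose with wt MET and fell with MET∆14. NR1D1 (chr17:40092793-40100589, minus strand) had 59.3 and 59.6 CPM at 0 h with MET∆14, 40.4 and 36.9 CPM at 3 h, 21.0 and 23.1 CPM at 6 h, and 26.0 and 21.3 CPM at 12 h. The 4 libraries of 6 and 12 h overlapped each other and lay below the rest. The fall was 1.54-fold at 3 h (log2 -0.62 ± 0.14, adjusted p = 0.00252), 2.69-fold at 6 h (-1.43 ± 0.14, adjusted p = 1.25e-06) and 2.49-fold at 12 h (-1.32 ± 0.14, adjusted p = 5.47e-06). With wt MET, NR1D1 had 318 and 446 CPM at 0 h, 577 and 555 CPM at 3 h, 628 and 594 CPM at 6 h, and 564 and 548 CPM at 12 h. All 6 libraries with HGF lay above both at 0 h, which were themselves far apart. The rise was 1.48-fold at 3 h (0.57 ± 0.12, adjusted p = 0.00528), 1.6-fold at 6 h (adjusted p = 0.000732) and 1.46-fold at 12 h (adjusted p = 0.00364), and without wt MET 0 h replicate 1 the 3 h call was lost (log2 0.35, adjusted p = 0.063).

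NR1D2 (chr3:23945286-23980617, plus strand) had 77.2 and 70.3 CPM at 0 h with MET∆14, 50.2 and 42.5 CPM at 3 h, 27.6 and 25.1 CPM at 6 h, and 25.4 and 24.7 CPM at 12 h. It fell 1.59-fold (adjusted p = 0.000104), 2.81-fold (log2 -1.49 ± 0.10, adjusted p = 3.9e-08) and 2.94-fold (-1.56 ± 0.10, adjusted p = 9.79e-08) at the 3 times, and its 6 and 12 h libraries lay below the others. With wt MET it had 338 and 368 CPM at 0 h, 348 and 386 CPM at 3 h, 423 and 396 CPM at 6 h, and 474 and 463 CPM at 12 h. The 3 h libraries overlapped those of 0 h, and only the 12 h rise was called (1.33-fold, log2 0.41 ± 0.09, adjusted p = 0.00308).

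Part of NR1D1 overlaps another gene. Of its exon bases, 18% lie in exons of THRA on the opposite strand, and whether the reads were counted by strand is not given in the sources used here, so its counts could be shared. THRA, looked up after the values of NR1D1 were seen, had condition means of 8.86 to 12.9 CPM with wt MET, where those of NR1D1 were 382 to 611 CPM. With MET∆14 it was nearer to NR1D1, at 10.9 ± 1.9 against 22.1 ± 1.46 CPM at 6 h and at 19.5 ± 2.57 against 23.7 ± 3.31 CPM at 12 h. With MET∆14, THRA was called lower at 3 h (1.52-fold, adjusted p = 0.0134) and 6 h (2.19-fold), as NR1D1 was, and not at 12 h (adjusted p = 0.216). With wt MET, THRA was called lower at 6 h (1.44-fold) and 12 h (1.46-fold, adjusted p = 0.034), where NR1D1 was higher. DBP shares 10.2% of its exon bases with SPHK2 on the opposite strand, whose condition means were 11.8 to 18.8 CPM with wt MET, above those of DBP. SPHK2 was called lower with wt MET at 6 h (1.6-fold, adjusted p = 0.000927) and 12 h (1.53-fold, adjusted p = 0.00168), as DBP was. With MET∆14 it was called lower at 3 h (11.2 to 7.83 CPM, 1.42-fold, adjusted p = 0.0113) and had 13.0 CPM at 6 h and 11.1 CPM at 12 h, where it was not called and DBP was lower. The part of shared reads in these falls was not tested. PER3 shares 16.6% with UTS2 and a non-coding gene, and UTS2 had at most 1 count in any library.

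Of the PER genes, which encode the repressors that cycle with the CRY proteins, PER1 had the largest rise with wt MET at 3 and 6 h and PER3 at 12 h and on the mean over the times (0.71, against 0.58 for PER1). PER1 (chr17:8140472-8156506, minus strand) had 234 and 316 CPM at 0 h, 531 and 494 CPM at 3 h, 516 and 459 CPM at 6 h, and 299 and 260 CPM at 12 h in these cells. The 3 and 6 h libraries lay above the others, and the 12 h libraries fell between those of 0 h. The rise was 1.87-fold at 3 h (log2 0.90 ± 0.13, adjusted p = 0.000164) and 1.77-fold at 6 h (0.83 ± 0.13, adjusted p = 0.000154), with a log2 difference of 0.03 ± 0.13 at 12 h (adjusted p = 0.913). With MET∆14, PER1 had 48.8 and 51.2 CPM at 0 h, 32.3 and 34.0 CPM at 3 h, 15.1 and 16.3 CPM at 6 h, and 17.2 and 13.9 CPM at 12 h. Every library with HGF was below both libraries without it. The fall was 1.51-fold at 3 h (adjusted p = 0.00427), 3.17-fold at 6 h (-1.67 ± 0.15, adjusted p = 4.13e-07) and 3.18-fold at 12 h (-1.67 ± 0.15, adjusted p = 1.13e-06).

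PER2 (chr2:238244044-238290102, minus strand) also rose early with wt MET, from 134 and 146 CPM at 0 h to 219 and 218 CPM at 3 h, 190 and 191 CPM at 6 h, and 179 and 158 CPM at 12 h. The rise was called at 3 h (1.56-fold, adjusted p = 0.00055) and 6 h (1.36-fold, adjusted p = 0.00403) and not at 12 h (log2 0.26 ± 0.10, adjusted p = 0.0609). With MET∆14 it had 21.6 and 22.6 CPM at 0 h, 28.2 and 27.0 CPM at 3 h, 15.6 and 16.3 CPM at 6 h, and 12.6 and 8.62 CPM at 12 h. The 3 h libraries lay above those of 0 h without passing the test (log2 0.32 ± 0.12, adjusted p = 0.0553), which they did pass with DESeq2 (adjusted p = 0.0263) and without either MET∆14 12 h library. PER2 was lower at 6 h (1.38-fold, adjusted p = 0.00688) and at 12 h (2.02-fold, adjusted p = 3.3e-05), where its replicates differed most.

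PER3 (chr1:7784291-7845177, plus strand) differed between the lines at 0 h and had overlapping levels at 12 h. With MET∆14 it fell from 94.4 and 102 CPM at 0 h to 70.0 and 72.7 CPM at 3 h, 49.4 and 52.7 CPM at 6 h, and 37.8 and 29.4 CPM at 12 h. Each step lay below the step before, with falls against 0 h of 1.38-fold (adjusted p = 0.00344), 1.93-fold (adjusted p = 4.92e-06) and 2.91-fold (log2 -1.54 ± 0.11, adjusted p = 1.59e-07). With wt MET it rose from 19.5 and 18.8 CPM at 0 h to 30.1 CPM in both replicates at 3 h, 32.0 and 28.2 CPM at 6 h, and 35.6 and 31.8 CPM at 12 h. The rise was 1.57-fold at 3 h (adjusted p = 0.0016) and at 6 h (adjusted p = 7e-04) and 1.77-fold at 12 h (0.82 ± 0.12, adjusted p = 0.000116). The 12 h ranges of the lines overlapped, after a 5.14-fold difference at 0 h. That overlap involves the MET∆14 12 h replicates, which stood furthest apart over all genes (chi-square per degree of freedom of 34.5).

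The CRY genes, which encode the cryptochrome repressors, were not called lower with MET∆14 in the joint test, unlike the other members. CRY1 (chr12:106991364-107093549, minus strand) was the 1 member that rose with MET∆14, from 7.50 and 6.71 CPM at 0 h (115 and 135 counts) to 15.5 and 14.1 CPM at 3 h, 14.4 and 15.2 CPM at 6 h, and 16.7 and 14.0 CPM at 12 h. All libraries with HGF lay above those without it and overlapped among the times. The rise was 2.09-fold at 3 h (log2 1.06 ± 0.14, adjusted p = 2.61e-05) and at 6 h (1.07 ± 0.13, adjusted p = 1.32e-05) and 2.19-fold at 12 h (1.13 ± 0.13, adjusted p = 1.48e-05). With wt MET, CRY1 had 61.6 and 74.9 CPM at 0 h, 60.7 and 63.4 CPM at 3 h, 63.8 and 61.9 CPM at 6 h, and 83.4 and 77.4 CPM at 12 h, and no time differed from 0 h in the test (log2 0.24 ± 0.10 at 12 h, adjusted p = 0.0894).

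CRY2 (chr11:45847118-45883248, plus strand) had 19.1 CPM in both replicates at 0 h with MET∆14, 20.2 CPM in both at 3 h, 18.2 and 19.1 CPM at 6 h, and 18.2 and 13.0 CPM at 12 h. None of these times was called (log2 0.08 ± 0.14, -0.03 ± 0.14 and -0.27 ± 0.14), but without MET∆14 12 h replicate 1 the 12 h difference was called lower (-0.56, adjusted p = 0.00649). With wt MET it had 28.1 and 33.8 CPM at 0 h, 43.3 and 41.0 CPM at 3 h, 37.3 and 35.7 CPM at 6 h, and 37.4 and 32.0 CPM at 12 h. Its joint F test over the times was not called there (mean log2 0.28, adjusted p = 0.065). That test was called with DESeq2's size factors (adjusted p = 0.0486), without the filter (0.0143), with 10 counts required in every library (0.0458) and with each line alone (0.0104). The 3 h libraries were 1.36-fold higher than those of 0 h (0.45 ± 0.13, adjusted p = 0.0291), a call that was lost without wt MET 0 h replicate 1 (adjusted p = 0.228) or either 3 h replicate and with a replicate block (adjusted p = 0.0506).

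**Figure D2:**
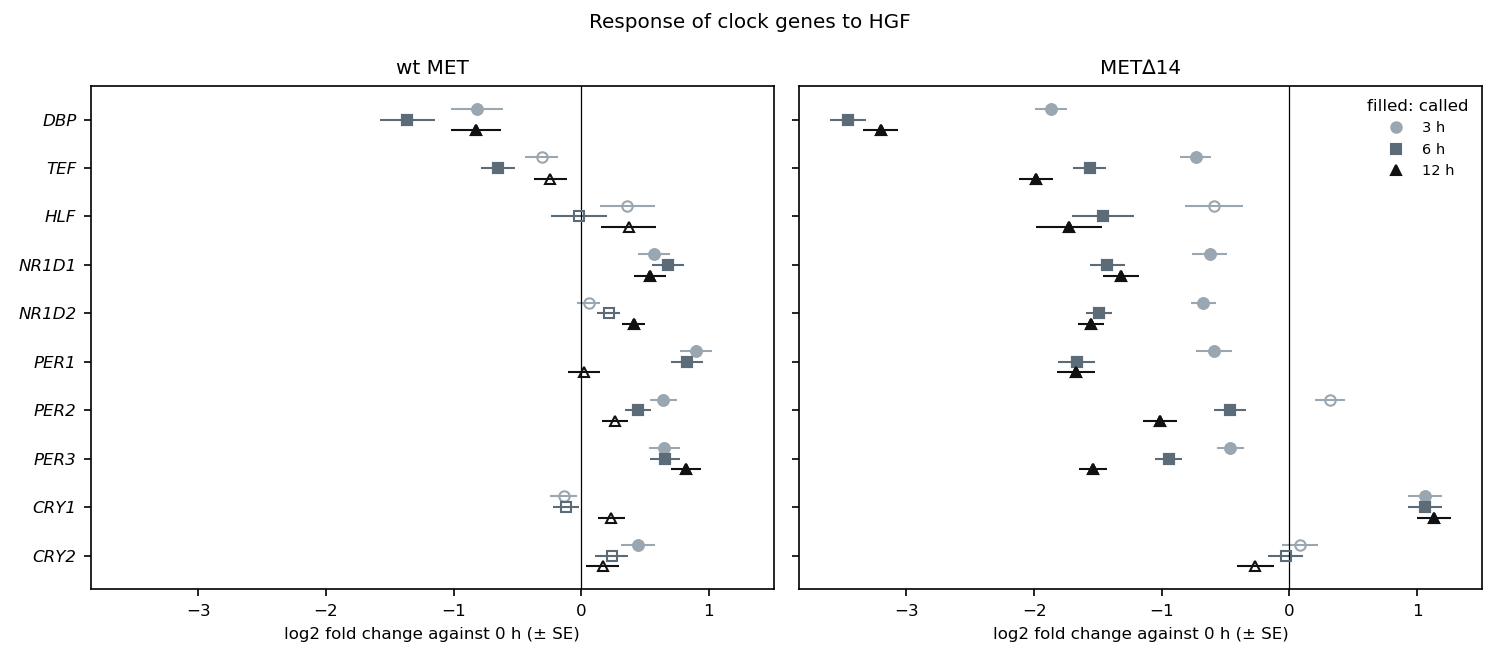
Log2 fold change of each clock gene against 0 h of its line at 3, 6 and 12 h of HGF (points, with bars of 1 SE from the fit, and filled where the adjusted p is under 0.05), with wt MET on the left and MET∆14 on the right on the same scale. With MET∆14, CRY1 is the gene to the right of 0 at every time with filled points, at 1.06 to 1.13, and DBP reaches -3.46.

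Between neighbouring times, the falls with MET∆14 went on after 3 h. From 3 to 6 h, 8 of the 10 members fell and none rose, beside 9.77% of all tested genes called in either direction. DBP fell a further 3.01-fold (log2 -1.59 ± 0.15, adjusted p = 2.32e-05) and PER1 2.11-fold (-1.08 ± 0.15, adjusted p = 0.000492). TEF, NR1D2, NR1D1 and PER2 fell by 1.78-fold, 1.76-fold, 1.74-fold and 1.72-fold, PER3 by 1.4-fold (lost without MET∆14 3 h replicate 2 or either 6 h replicate), and HLF by 1.83-fold in a call that held in only 6 of the 16 fits that left out a library. From 6 to 12 h, 2 members were called, beside 18.6% of all tested genes. These were PER3, with a further fall of 1.51-fold (adjusted p = 0.00229), and PER2, of 1.47-fold (adjusted p = 0.0115, and 0.101 without MET∆14 6 h replicate 2).

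With wt MET, no member was called between 3 and 6 h by edgeR or by DESeq2, beside 3.1% of all tested genes, and 1 (TEF, log2 -0.34 ± 0.13) had an unadjusted p under 0.05. From 6 to 12 h, 2 members were called, beside 11.6% of all tested genes. PER1 came down 1.74-fold (-0.80 ± 0.13, adjusted p = 0.000809), into the range of its 0 h libraries. CRY1 went up 1.28-fold (0.36 ± 0.10, adjusted p = 0.0356) in a call that held in 4 of the 16 fits that left out a library.

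The difference between the responses, MET∆14 minus wt MET, was tested directly. In the joint test over the 3 times, 8 members had a lower response with MET∆14 and CRY1 a higher one, beside 37.6% of all tested genes called in either direction, and CRY2 was not called (mean log2 difference -0.36, adjusted p = 0.262). PER1 differed by a mean log2 value of -1.89 (adjusted p = 1.9e-06), DBP by -1.84 (adjusted p = 1.23e-05), NR1D1 by -1.72 (adjusted p = 3.81e-06), PER3 by -1.69 (adjusted p = 7.06e-07) and HLF by -1.50 (adjusted p = 0.00106). NR1D2 differed by -1.47 (adjusted p = 4.12e-07), TEF by -1.03 (adjusted p = 3.29e-05), PER2 by -0.84 (adjusted p = 0.000121) and CRY1 by 1.09 (adjusted p = 0.000186). DBP and TEF fell in both lines and fell further with MET∆14, whereas the mean change over the times of the NR1D and PER genes was above 0 with wt MET and below 0 with MET∆14. At 3 h PER2 was above 0 in both lines (0.64 with wt MET and 0.32, not called, with MET∆14). The largest single difference was that of PER1 at 6 h (-2.49 ± 0.19, 5.63-fold). At 3 h, TEF (-0.43 ± 0.18), HLF (-0.95 ± 0.32), PER2 (-0.32 ± 0.16) and CRY2 (-0.36 ± 0.19) did not pass the test. The call of DBP at 3 h was lost without wt MET 3 h replicate 1 (adjusted p = 0.0683). The CRY2 difference at 12 h was -0.43 ± 0.19 (adjusted p = 0.12), and without MET∆14 12 h replicate 1 CRY2 was called in the joint test (adjusted p = 0.0144).

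**Figure D3:**
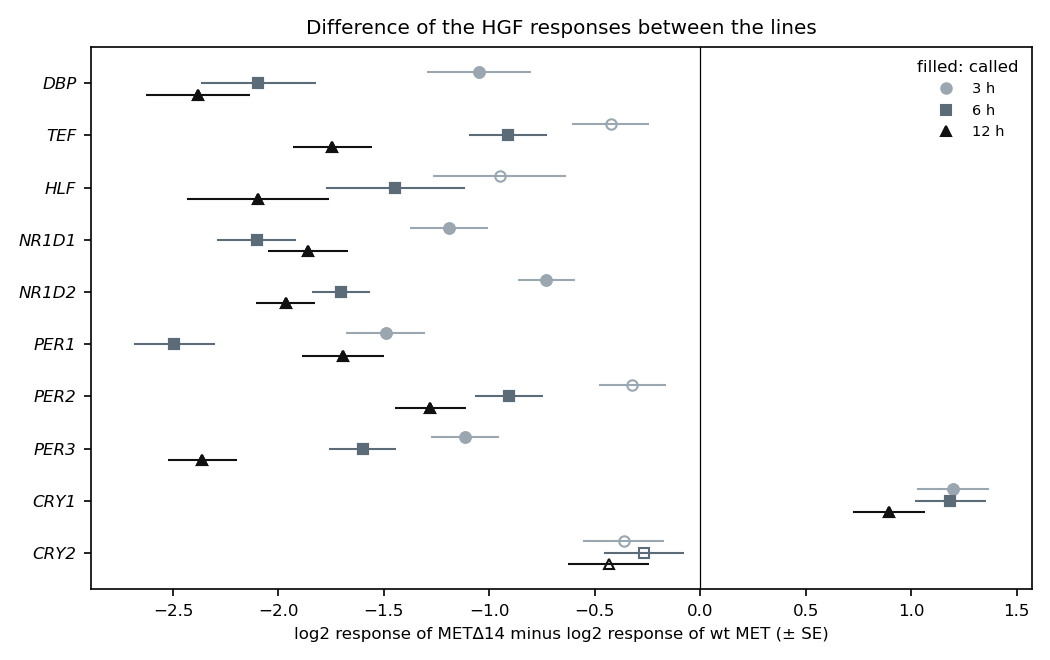
Difference of the log2 responses to HGF, MET∆14 minus wt MET, for each clock gene at 3, 6 and 12 h (points, with bars of 1 SE, and filled where the adjusted p is under 0.05). At 6 and 12 h, 8 genes lie to the left of 0 with filled points, CRY1 lies to the right, and CRY2 is open at each time. Of all 15067 tested genes, 4545 were called in either direction at 6 h and 3621 at 12 h.

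In an additive model of cell line and time, the formula of the study's methods, 3 members had a time effect shared by the lines, beside 30.6% of all tested genes. DBP (mean log2 change -2.19, adjusted p = 0.000124) and TEF (-0.93, adjusted p = 0.00574) were lower after HGF. PER2 was called with a mean near 0 (0.05, adjusted p = 0.0331), and that sign turned without either wt MET 0 h library. NR1D1 (adjusted p = 0.537), PER3 (adjusted p = 0.633), NR1D2 (adjusted p = 0.243) and PER1 (adjusted p = 0.104) were not called in that model. With DESeq2, PER1 was called (adjusted p = 0.0412). Like PER2, these genes had mean changes of opposite sign in the lines.

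The other regulators of the loop were described from a list of 11 genes, of which 10 were tested. In the joint test over the times, 7 were higher and none lower with wt MET (19.2% and 21.1% of all tested genes), and 3 were higher and 5 lower with MET∆14 (25.6% and 28.5%). RORB had 0 counts in both wt MET libraries at 0 h and at most 8 in any wt MET library, so no fold is given for it there. Without RORB, the median of the mean log2 changes was 0.61 with wt MET and -0.14 with MET∆14, beside -0.05 over all tested genes in both lines.

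BHLHE40, a repressor that competes for E-boxes and is known as DEC1, stood with wt MET at 300.2 ± 9.11 CPM before HGF (SD, n = 2) and rose to 1242 ± 97.9 CPM (3 h) and 1419 ± 97.9 CPM (6 h), with 531 ± 3.52 CPM left at 12 h (log2 2.05, 2.24 and 0.82). With MET∆14 it fell from 181 ± 3.02 CPM to 124 ± 4, 89.9 ± 3.8 and 87.9 ± 8.83 CPM (log2 -0.55, -1.01 and -1.04). Its relative BHLHE41, or DEC2, was raised with wt MET, to 29.2 ± 3.29 CPM at 12 h against 12.7 ± 3.89 before HGF (log2 1.20 ± 0.16, adjusted p = 6.98e-05) and fell from 8.62 ± 0.387 to 2.5 ± 0.0736 CPM at 3 h with MET∆14 (-1.78 ± 0.22, adjusted p = 1.64e-05). NFIL3, the repressor of D-box genes, was higher with wt MET (mean log2 0.61, adjusted p = 0.000128) and slightly lower with MET∆14 (-0.30, adjusted p = 0.0345). In the joint test of the difference between the responses, these 3 genes were called, with mean values of -2.57, -2.52 and -0.91. ARNTL2 (1.41), NPAS2 (0.72) and ARNTL (0.01) were called there with a mean above 0. Of all tested genes, 37.6% were called in either direction. BHLHE40 shares 12.8% of its exon bases with an antisense gene.

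Of the activators, ARNTL, ARNTL2 and NPAS2 rose with MET∆14. ARNTL, the BMAL1 gene, rose in both lines, with a lower response at 6 h with MET∆14 (log2 difference -0.46 ± 0.14, adjusted p = 0.0222). The difference was not called for ARNTL at 3 or 12 h. With wt MET it went from 30.7 ± 2.23 CPM before HGF up to 64.2 ± 3.69 CPM by 6 h (log2 1.07 ± 0.10, adjusted p = 1.51e-06), and with MET∆14 from 17.0 ± 0.0279 up to 35.2 ± 3.96 CPM by 12 h (1.06 ± 0.10, adjusted p = 2.05e-06). Its paralogue ARNTL2 rose with MET∆14 from 37.7 ± 3.72 CPM to 69.2 ± 6.19, 115 ± 9.21 and 133 ± 7.29 CPM at 3, 6 and 12 h (log2 0.87, 1.61 and 1.81). With wt MET no single time was called for ARNTL2, although the joint test was (mean log2 0.02, adjusted p = 0.0132). NPAS2 rose with MET∆14 from 27.3 ± 0.411 to 52.5 ± 14.7 CPM at 12 h (0.96 ± 0.14, adjusted p = 9.92e-05) and was not called against 0 h at any single time with wt MET. There its joint test was called (mean log2 0.08, adjusted p = 0.0174), and it fell from 6 to 12 h (-0.45 ± 0.13, adjusted p = 0.0357). CLOCK had 28.5 ± 7.04 CPM before HGF with wt MET and rose to 42.4 ± 1.2 CPM by 12 h (0.57 ± 0.14, adjusted p = 0.00503) and was not called with MET∆14 (mean log2 0.03, adjusted p = 0.622).

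RORA, an activator at ROR elements, had 1.53 to 2.87 CPM in the condition means with wt MET, where it was higher at 12 h (log2 0.90 ± 0.32, adjusted p = 0.0376). With MET∆14 it was called lower at 6 h (-0.76 ± 0.29, adjusted p = 0.0431) and rose again from 6 to 12 h (1.22 ± 0.28, adjusted p = 0.00839). Its 12 h level of 4.73 ± 1.83 CPM, from 37 and 110 counts, was not called against 3.53 ± 0.355 CPM at 0 h (0.46 ± 0.27). The joint call of RORA with MET∆14 had a mean log2 change of -0.14 (adjusted p = 0.0141). CIART, also called CHRONO, a repressor of the CLOCK and ARNTL pair whose 300-base promoter window held 3 E-boxes, was low, at 4 to 56 counts per library. It was lower at 6 h with wt MET (-0.89 ± 0.32, adjusted p = 0.0452) and at 6 and 12 h with MET∆14 (-1.45 ± 0.38, adjusted p = 0.00576, and -1.14 ± 0.38, adjusted p = 0.0276).

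**Figure D4:**
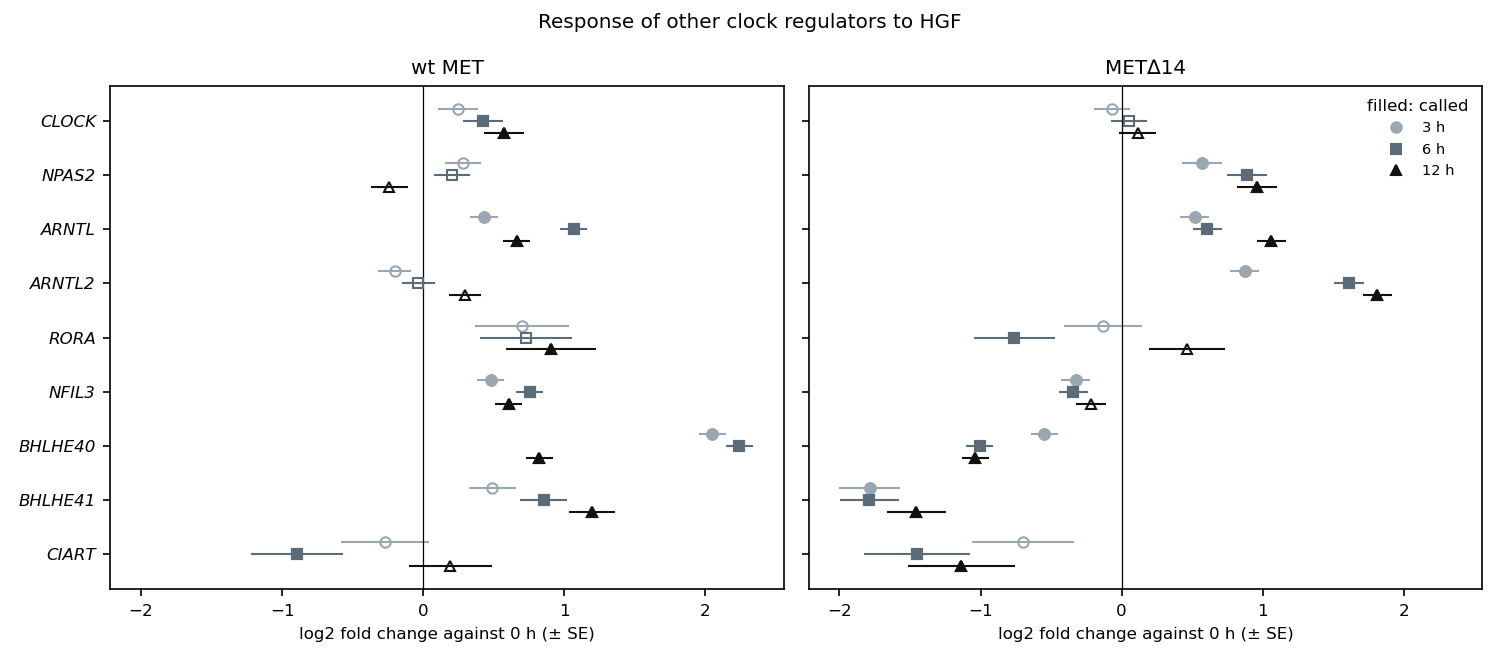
Log2 fold change against 0 h of each line for 9 other clock regulators at 3, 6 and 12 h of HGF (points, with bars of 1 SE, and filled where the adjusted p is under 0.05), on the same scale in both panels; RORB is left out for its low counts. BHLHE40 reaches 2.24 with wt MET and -1.04 with MET∆14, and ARNTL2 reaches 1.81 with MET∆14.

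Genes that modify clock proteins (kinases, phosphatases, ubiquitin ligases, acetylases and corepressors) were taken from a list of 45, of which 44 were tested. In the joint test over the times, by the sign of the mean change, 15 were higher and 7 lower with wt MET. With MET∆14, 16 were higher and 12 lower. The medians of the mean changes were 0.10 and 0.08, beside -0.05 over all tested genes in each line. Of all tested genes, 19.2% were higher and 21.1% lower in the same test with wt MET, and 25.6% and 28.5% with MET∆14. CSNK1E, which encodes casein kinase 1 epsilon, a kinase that marks PER proteins for degradation, rose with MET∆14 from 116 ± 6.19 CPM (SD, n = 2) to 257 ± 4.61, 267 ± 8.25 and 207 ± 17.2 CPM (mean log2 1.06, adjusted p = 6.98e-08). With wt MET CSNK1E was called lower at 6 h (-0.30 ± 0.08, adjusted p = 0.00796). USP7, a deubiquitinase known to act on CRY proteins, rose with MET∆14 (mean log2 0.61, adjusted p = 2.37e-05). FBXW7, the F-box protein that targets NR1D1 among others, fell there from 100.3 ± 0.814 to 54.2 ± 4.06 CPM at 12 h (mean log2 -0.85, adjusted p = 1.04e-06). KAT2B, an acetyltransferase, fell with MET∆14 (-0.67, adjusted p = 1.09e-05). With wt MET the acetyltransferase genes EP300 (0.77, adjusted p = 0.00313) and CREBBP (0.66, adjusted p = 0.00334) had the largest rises, and TBL1X, a corepressor subunit (-0.79, adjusted p = 0.000105), and the phosphatase gene PPP5C (-0.40, adjusted p = 0.000527) the largest falls.

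Known clock outputs were taken from a list of 29, of which 24 were tested. In the joint test over the times, by the sign of the mean change, 11 were higher and 5 lower with wt MET, beside 19.2% and 21.1% of all tested genes. With MET∆14, 11 were higher and 10 lower, beside 25.6% and 28.5%. The medians were 0.21 and -0.03, and over all tested genes -0.05 in each line. KLF10, a transcription factor and early response gene, had 177 ± 0.344 CPM before HGF with wt MET (SD, n = 2) and rose to 895 ± 39 CPM by 3 h (log2 2.34 ± 0.08, adjusted p = 3.04e-11) and was at 306 CPM at 12 h, while with MET∆14 it was called only at 12 h (-0.58 ± 0.08, adjusted p = 4.79e-05). WEE1, the mitotic entry kinase, rose with wt MET from 35.7 ± 2.15 up to 113 ± 1.94 CPM by 3 h (1.67 ± 0.10, adjusted p = 3.18e-08) and fell with MET∆14 from 39.5 ± 2.45 to 23.7 ± 1.15 CPM (-0.74 ± 0.10, adjusted p = 6.66e-05). PDK4, a kinase of pyruvate dehydrogenase, fell most with wt MET (mean log2 -1.85, adjusted p = 3.71e-05) from 0 h libraries that were far apart (22.6 ± 9.52 CPM), and INSIG2, a regulator of sterol synthesis, fell there as well (-0.51, adjusted p = 0.000641). With MET∆14, CCND1, the cyclin D1 gene, rose from 272 ± 22.4 to 680 ± 38 CPM at 6 h (1.32 ± 0.10, adjusted p = 1.36e-07). ID2, an inhibitor of basic helix-loop-helix factors, fell from 38.3 ± 2.29 to 9.74 ± 0.731 CPM at 3 h (-1.98 ± 0.12, adjusted p = 2.34e-08). TSC22D3, the glucocorticoid-induced leucine zipper gene, fell from 93.1 ± 6.67 to 30.9 ± 2.41 CPM at 6 h (-1.59 ± 0.12, adjusted p = 1.25e-07) and rose with wt MET at 3 h (0.62 ± 0.12, adjusted p = 0.00232).

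The 8 members whose mean log2 CPM reached 3 in both lines were set beside the 8570 other genes that did so, by the root mean square difference of their log2 CPM over the 8 condition means after centring each line. The closest to NR1D1 were NCOA7 (0.0792), H2AC6 (0.118) and TSC22D3 (0.121), and the closest to NR1D2 were H2AC6 (0.108), GABARAPL1 (0.115) and DZIP3 (0.141). Among the members, NR1D1 and NR1D2 were each closest to the other (0.168). PER1 was closest to TSC22D3 (0.203), DDIT3 (0.205) and NEDD9 (0.216). PER2 was closest to OSGIN1 (0.163), ZNF703 (0.168) and PIM3 (0.172), and PER3 to FYB1 (0.165), H2BC5 (0.175) and NCOA7 (0.177). TEF was closest to PPL (0.0871), GCLC (0.112) and CALCOCO1 (0.128). CRY1 was closest to PIP4K2A (0.0619), FMNL2 (0.0805) and GJC1 (0.0901), and CRY2 to RBBP8 (0.0527), ZNF551 (0.0547) and KLHL9 (0.0643). The nearest member to CRY1 was CRY2 at 0.415, behind most of the genes compared. These likenesses rest on the same 16 libraries and on 8 condition means, and are given without a test; the 24 pairs were the same with a prior count of 0.5.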

How the data were processed

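RNA-seq of 16 libraries was analysed, 2 biological replicates at each of 4 times in each of 2 lines. After adapter trimming, the authors aligned reads to hg38 with STAR, and they deposited raw, whole-number read counts for each gene. The submitters' processing notes also list STAR 2.5.0 and RSEM 1.3.2 without a role, so the counts may be rounded estimates. How reads were counted, with which annotation release and whether by strand is not given in the sources used here. Columns spell the wt MET line slightly differently from the titles and were matched to samples on the remaining text.

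The deposited counts were fitted in R 4.3.3 with edgeR 4.0.16 (limma 3.58.1): filterByExpr (minimum count 10, minimum total 15), TMM, and a robust quasi-likelihood model with 1 coefficient per line and time over all 16 libraries (common coefficient of variation 0.0868). Benjamini-Hochberg adjustment was made over all 15067 tested genes, with a threshold of 0.05. CPM uses TMM-scaled library sizes, and log2 CPM for likeness a prior count of 2. SE is that of the fitted log2 fold change. Counts per kilobase use the longest GENCODE transcript, on GRCh38. DESeq2 1.42.0, DESeq2's size factors, other filters, each line alone, a replicate block, left-out libraries and a prior count of 0.5 were alternatives. The scripts were tested on simulated data. The members and the gene lists were chosen with earlier results of these data known. Beyond the members, the text names every tested gene of the core list and, of each other list and line, the 2 largest rises and the 2 largest falls of the mean log2 change among called genes whose mean log2 CPM reached 3 in that line. Some of the items this rule names are not reported here.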

Additional observations from a re-analysis of the deposited data

Results flagged for a closer look

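For 9 of the 10 clock genes, the response to HGF differed between the lines in the joint interaction test over the 3 times (edgeR quasi-likelihood F test, Benjamini-Hochberg adjustment over all tested genes). Of all tested genes, 37.6% were called in that test. The mean difference of the log2 responses, MET∆14 minus wt MET, was -1.89 for PER1, -1.84 for DBP, -1.72 for NR1D1, -1.69 for PER3 and -1.50 for HLF. It was -1.47 for NR1D2, -1.03 for TEF, -0.84 for PER2 and 1.09 for CRY1. The joint calls of these 9 genes held in each of the 16 fits that left out a library. Each line stands for 1 MET status, so a difference of the lines and of the receptors cannot be told apart. With 2 samples per condition, single libraries were not tested for distance from their group.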

How the results depend on the processing

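The number of clock genes called stayed within 1.5 times its main value under the other settings tried except these. From 6 to 12 h, it was 1 in place of 2 with wt MET under a replicate block and 1 in place of 2 with MET∆14 when each line was fitted alone; leaving out libraries gave 1 to 4 and 1 to 3. For the time effect shared by the lines it was 9 in place of 3 without the filter. With upstream bases only, the members holding TTACGTAA and TGACGTCA went from 1 to 0 each, since those matches reach past the start. For CRY1, the mean change over the times with wt MET (-0.01) turned to 0.00947 with DESeq2's size factors and with DESeq2, 0.00593 without the filter, 0.0160 with 10 counts required in every library, 0.0151 with each line alone, and was between -0.139 and 0.157 over the fits that left out a library, above 0 in 11 of the 16. The shared time effect of PER2 turned to -0.0867 and -0.0495 without wt MET 0 h replicate 1 and 2, and ranged up to 0.179 without other libraries. The causes were not tested. Leaving out libraries gave 4 to 6 calls at 3 h and 3 to 6 at 12 h with wt MET, and 5 to 9 for the difference of responses at 3 h. The wt MET rises rest on 0 h replicates that were far apart over all genes, and the MET∆14 12 h values on another such pair. Of the members that rose, NR1D1 (318.5 and 445.6 CPM) and PER1 (233.6 and 315.8 CPM) had 0 h replicates far apart. Those of NR1D2 (338.1 and 367.5 CPM), PER2 (134.5 and 145.6 CPM) and PER3 (19.46 and 18.81 CPM) were closer.

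Replicate numbers did not pair the samples: correlations of deviations between same-numbered libraries ran from -0.0528 to 0.0345 with wt MET and from -0.159 to 0.035 with MET∆14. With the replicate number as a block, 176 of the 180 tests of single clock genes kept their direction and call, and 4 lost the call: HLF from 3 to 6 h with MET∆14 (adjusted p = 0.0735), the shared effect of PER2 (0.0646), CRY1 from 6 to 12 h (0.0534) and CRY2 at 3 h (0.0506) with wt MET. DESeq2 kept 175 of 180, lost DBP at 3 h with wt MET, added 3 calls and turned the sign of CRY1. Depth limits DBP with wt MET, BHLHE41 after HGF with MET∆14, and HLF, CIART, RORA and RORB in both lines.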
